A study of Homo sapiens with 6 samples.

Results

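Aminoacyl-tRNA synthetase genes were followed in LNCaP cells sorted for high or low aldehyde dehydrogenase activity. The 36 genes comprise 20 enzymes of the cytosol and 16 of the mitochondria. They were chosen by name from those listed for this family, and all 36 were found among the 16000 genes of the deposited table under the listed symbols. RNA came from 3 ALDH high and 3 ALDH low samples of LNCaP, a long-established line of human prostate cancer cells that responds to androgen. ALDH high stands for the 10% of cells with the strongest staining in the ALDEFLUOR assay, in which active aldehyde dehydrogenases trap a fluorescent product, and ALDH low for the 10% with the weakest. Cells of both groups were grown in RPMI-1640 with 10% fetal bovine serum, and the labels name no treatment of either. Both groups come from 1 cell line, so that the samples do not stand for different tumours.

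Synthetases join each amino acid to its cognate tRNA and so supply the ribosome. Separate nuclear genes, by custom named with a final 2, encode most of the enzymes that are imported into mitochondria. KARS and GARS are exceptions, since each encodes both a cytosolic and a mitochondrial form, and no separate mitochondrial glutaminyl enzyme exists in human cells. In the cytosol 8 of the listed genes (EPRS, IARS, LARS, MARS, QARS, RARS, KARS and DARS) encode enzymes of the multisynthetase complex, which is held together by the scaffold proteins AIMP1, AIMP2 and EEF1E1. When amino acids run short, uncharged tRNA activates the kinase EIF2AK4, and the transcription factor ATF4 then induces many cytosolic synthetase genes together with transporters and enzymes of amino acid synthesis.

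The libraries held 23817310 to 28766265 recovered reads in ALDH high and 27042022 to 30617873 in ALDH low. All 9 luminal prostate markers were present, with a summed level of 1508 to 1568 RPKM in ALDH high and 1486 to 1578 RPKM in ALDH low, while 1 marker was present of 4 basal (KRT14), 5 leukocyte (CD68), 5 fibroblast (COL1A1) and 4 endothelial (VWF) genes. The summed level of these lists was at most 6.81 RPKM in ALDH high and 5.63 RPKM in ALDH low, both for the fibroblast marker. The libraries did not group by label. ALDH low 2 lay close to ALDH high 1 and ALDH high 3, both over all genes and over the synthetases, whose root mean square gap on the log2 scale was 0.08 between ALDH high 3 and ALDH high 1 and 0.10 between ALDH high 1 and ALDH low 2. For comparison, it was 0.24 between ALDH high 2 and ALDH high 1, and 0.30 between ALDH low 1 and ALDH low 2. Each group comparison below therefore rests on a labelling that the libraries do not follow, and the members' differences without both samples numbered 2 are given after those of all samples. Leaving these out removes ALDH low 2, which went against the labels in these same values, and ALDH high 2. Over the synthetases ALDH high 2 lay nearest to ALDH low 2, at a gap of 0.20, against 0.24 to ALDH high 1. ALDH low 1 and ALDH low 3 likewise lay nearest to ALDH high libraries. Counts and p-values without both samples numbered 2, here and for the other gene lists, are a description and no independent test of the labels. Reads in a bulk sample cannot tell fewer cells of a kind from less RNA per cell.

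The promoters of several cytosolic synthetases hold a match to the composite element that ATF4 binds together with a C/EBP partner, and these are shown because ATF4 is a known regulator of the family. The element was searched as TGATGNAA on both strands, which reads TTNCATCA on the opposite one, in RefSeq promoters (GRCh38.p14) running from 250 bases before to 50 bases after the transcription start. Promoters were found for 16 of the 20 cytosolic and 14 of the 16 mitochondrial genes. DARS, LARS, VARS, YARS, AARS2 and VARS2 had none in the RefSeq table. The element occurred in 7 of the 16 cytosolic genes (43.8%) and in 1 of the 14 mitochondrial ones (7.14%, YARS2), against 305 of the 11204 genes of the table that have a promoter (2.72%) and 1270 of all 35116 promoters of 300 bases (3.62%). The 30 bases around each occurrence are given on the gene's own strand, 5′ to 3′, with the element in capitals.
AARS, chr16:70289675-70289704, minus strand: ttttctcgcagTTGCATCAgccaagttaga
CARS, chr11:3057407-3057436, minus strand: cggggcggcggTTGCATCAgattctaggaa
GARS, chr7:30594834-30594863, plus strand: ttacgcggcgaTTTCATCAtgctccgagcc
IARS, chr9:92293692-92293721, minus strand: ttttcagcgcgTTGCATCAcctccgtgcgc
MARS, chr12:57488053-57488082, plus strand: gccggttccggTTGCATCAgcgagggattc
NARS, chr18:57621804-57621833, minus strand: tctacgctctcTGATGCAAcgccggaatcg
TARS, chr5:33440956-33440985, plus strand: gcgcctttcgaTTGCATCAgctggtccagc
YARS2, chr12:32756076-32756105, minus strand: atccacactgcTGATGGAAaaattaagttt
In 6 of the 7 cytosolic genes, all but NARS, the element lay in the reverse orientation (TTGCATCA or TTTCATCA). It covered bases −13 to −6 in IARS, −4 to 4 in MARS, −2 to 6 in CARS, 3 to 10 in TARS and 15 to 22 in NARS, counted from the transcription start, and so lay close to the start in these 5 genes. It lay further upstream in GARS (−33 to −26), AARS (−187 to −180) and YARS2 (−197 to −190). A match describes letters in this window and not a bound site.

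Levels were compared between genes as reads per kilobase of exon, scaled to the counted reads of the library (RPKM). Exon length counted all annotated exons of a gene, which can far exceed its longest coding transcript. Levels and ranks between genes depend on this choice of length, and ranks by transcript length were not computed. Cytosolic synthetases were the more abundant set. Their mean levels over the 6 libraries ran from 14.0 RPKM (CARS, the cysteinyl enzyme) to 163 RPKM (AARS, the alanyl enzyme), with a median of 47.3 RPKM, against a range of 3.64 RPKM (SARS2) to 52.4 RPKM (IARS2) and a median of 10.5 RPKM for the mitochondrial ones. Every cytosolic gene lay above the mitochondrial median, and 5 of the 16 mitochondrial genes reached the lowest cytosolic level. The median over all genes of the table was 3.68 RPKM, and 35 of the 36 synthetases lay above it, the exception being SARS2.

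AARS (chr16:70252295-70289543, minus strand) led the cytosolic set with 171 ± 19.1 RPKM (SD, n = 3) in ALDH high and 156 ± 16.2 RPKM (SD, n = 3) in ALDH low. It had 19358, 22659 and 19227 reads (normalized) in ALDH high 1, 2 and 3, against 16745, 20450.0 and 20698 in ALDH low 1, 2 and 3. The ALDH high values span those of ALDH low 2 and 3, and ALDH low 1 was the lowest library. FARSA, the catalytic subunit of the cytosolic phenylalanyl enzyme (chr19:12922479-12934037, minus strand), followed at 139.5 ± 5.13 RPKM (SD, n = 3) in ALDH high and 141 ± 23.3 RPKM (SD, n = 3) in ALDH low, with 8845, 9259.5 and 9013 reads (normalized) in ALDH high 1, 2 and 3, against 7755, 8726 and 12099 in ALDH low 1, 2 and 3. Its lowest and its highest library were both ALDH low, so the groups overlapped. The third gene by level was SARS, the seryl enzyme (chr1:109213918-109238169, plus strand), at 88.7 ± 9.24 RPKM (SD, n = 3) in ALDH high and 85.7 ± 5.84 RPKM (SD, n = 3) in ALDH low and 8388, 9952 and 8783 reads (normalized) in ALDH high 1, 2 and 3, against 8000.5, 8943 and 10233 in ALDH low 1, 2 and 3. ALDH low 1 was its lowest library and ALDH low 3 its highest. The next 6 genes by mean level were NARS (76.4 RPKM), GARS (74.6 RPKM), MARS (63.8 RPKM), VARS (63.5 RPKM), EPRS (63.4 RPKM) and IARS (52.7 RPKM), and the order of neighbours was not tested. CARS and HARS, at 14.0 and 16.1 RPKM, were the lowest of the set by exon length. Their exons covered 10037 and 7853 bases, against 2758 and 3494 bases in the longest coding transcript. Their rank thus depends on the length used.

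Among mitochondrial enzymes IARS2, the isoleucyl enzyme (chr1:220094102-220148041, plus strand), stood apart in level at 51.4 ± 4.75 RPKM (SD, n = 3) in ALDH high and 53.3 ± 2.10 RPKM (SD, n = 3) in ALDH low. It had 5522, 6177 and 5375 reads (normalized) in ALDH high 1, 2 and 3, against 6126, 5723 and 6445 in ALDH low 1, 2 and 3, with the lowest value in ALDH high 3, the highest in ALDH low 3 and overlapping groups. YARS2, the tyrosyl enzyme (chr12:32727490-32755902, minus strand), came next at 22.2 ± 1.06 RPKM (SD, n = 3) in ALDH high and 24.6 ± 1.71 RPKM (SD, n = 3) in ALDH low, with 1229.5, 1223 and 1368 reads (normalized) in ALDH high 1, 2 and 3, against 1490.1, 1289 and 1591 in ALDH low 1, 2 and 3. Its ALDH high 3 value lay above that of ALDH low 2, and the other ALDH low libraries were higher than all of ALDH high. TARS2, the threonyl enzyme (chr1:150487364-150507609, plus strand), reached 20.4 ± 0.859 RPKM (SD, n = 3) in ALDH high and 20.1 ± 1.60 RPKM (SD, n = 3) in ALDH low and 2307, 2087 and 2246 reads (normalized) in ALDH high 1, 2 and 3, against 1969, 2276 and 2534 in ALDH low 1, 2 and 3, again with the lowest and highest library both in ALDH low. EARS2, the glutamyl enzyme whose product the amidotransferase of QRSL1, GATB and GATC turns into glutaminyl-tRNA, averaged 10.9 RPKM. The 5 lowest by exon length were CARS2, PARS2, WARS2, FARS2 and SARS2 at 6.69, 6.15, 4.90, 4.24 and 3.64 RPKM. CARS2 has 10460 exon bases against 1879 in its longest coding transcript, so its place depends on the length used. The SARS2 value is uncertain, since 46.2% of its exon bases also belong to AC011455.2 on the same strand and 10.8% to MRPS12 on the other strand. In VARS2, 22.0% are shared with GTF2H4 on the same strand.

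**Figure D1:**
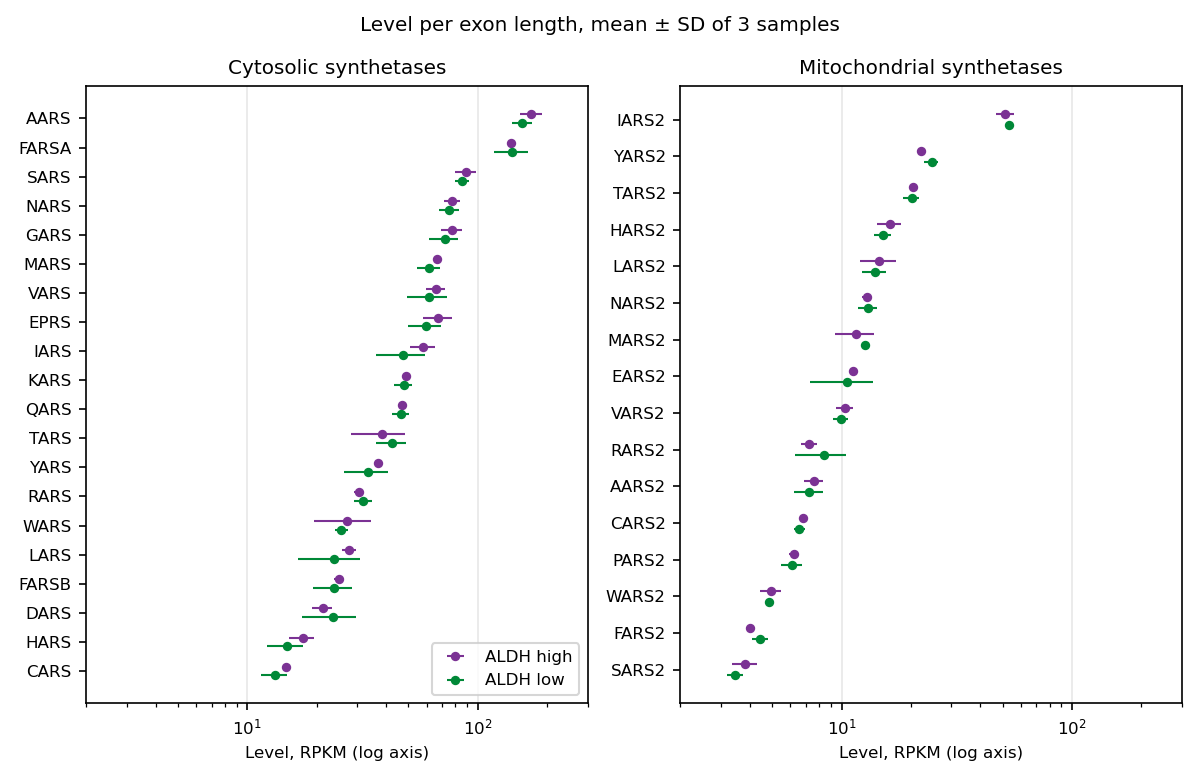
Level of each synthetase in RPKM on a log axis, mean ± SD of 3 ALDH high (purple, upper point) and 3 ALDH low samples (green, lower point), with cytosolic genes on the left and mitochondrial genes on the right. Cytosolic means ran from 14.0 RPKM (CARS) to 163 RPKM (AARS) and mitochondrial ones from 3.64 RPKM (SARS2) to 52.4 RPKM (IARS2), and the points of the 2 groups lie close together in every row.

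Cytosolic synthetases together took 0.544%, 0.612% and 0.537% of the gene reads in ALDH high 1, 2 and 3, against 0.487%, 0.580% and 0.516% in ALDH low 1, 2 and 3. Mitochondrial synthetases took 0.0904%, 0.0968% and 0.0889% in ALDH high, against 0.0934%, 0.0956% and 0.0867% in ALDH low. The summed cytosolic level was 5.30, 5.65 and 5.28 times the mitochondrial one in ALDH high 1, 2 and 3, against 4.57, 5.32 and 5.34 times in ALDH low 1, 2 and 3. The ratio was lowest in ALDH low 1, and the other 5 libraries lay between 5.28 and 5.65.

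Between ALDH high and ALDH low no synthetase differed past the threshold. In limma's fit over all 16000 genes, 0 of the 36 members had an adjusted p under 0.05, where 0% of all genes did, and their smallest adjusted p was 0.984 (limma). On the recovered reads, edgeR (quasi-likelihood test), DESeq2 and limma-voom likewise called 0 members, where each called 0% of all genes. At an unadjusted p under 0.05, 0 of 36 members passed in limma, edgeR, DESeq2 or limma-voom, against 2.11%, 2.23%, 2.22% and 2.11% of all genes in that order. The groups overlapped in all 36 members. Over all genes, 3.67% were higher in ALDH high with no overlap and 3.32% were lower in that way. The samples of a group are not stated to come from separate sorts or cultures, and the p-values then reflect only how much these samples vary, which may be technical.

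The intervals limit how large an undetected difference could be. All 36 of the 95% intervals included 0 and all 36 lay within a 2-fold change either way, which held for 74.7% of all genes and for 94.2% of the 11506 genes that averaged 100 or more normalized reads. The outermost bounds were −0.66 for TARS and 0.65 for IARS on the log2 scale, so the widest reached 1.57-fold. The median half-width was 0.38 for cytosolic and 0.35 for mitochondrial members, against 0.42 for genes with a mean of at least 100. Without both samples numbered 2, limma called 0.669% of all genes. That choice removes ALDH low 2 and ALDH high 2, each of which lay nearest to a library of the other label. In the same fit 15.3% had an unadjusted p under 0.05. In that comparison 0 of the 36 synthetases were called, 2 had an unadjusted p under 0.05 (TARS and LARS), and the smallest adjusted p was 0.184 (limma). Without those samples the log2 difference was −0.54 for TARS, 0.49 for LARS, 0.41 for HARS, −0.33 for MARS2, 0.32 for IARS and −0.31 for DARS, and the other members lay between −0.29 (WARS) and 0.29 (YARS).

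**Figure D2:**
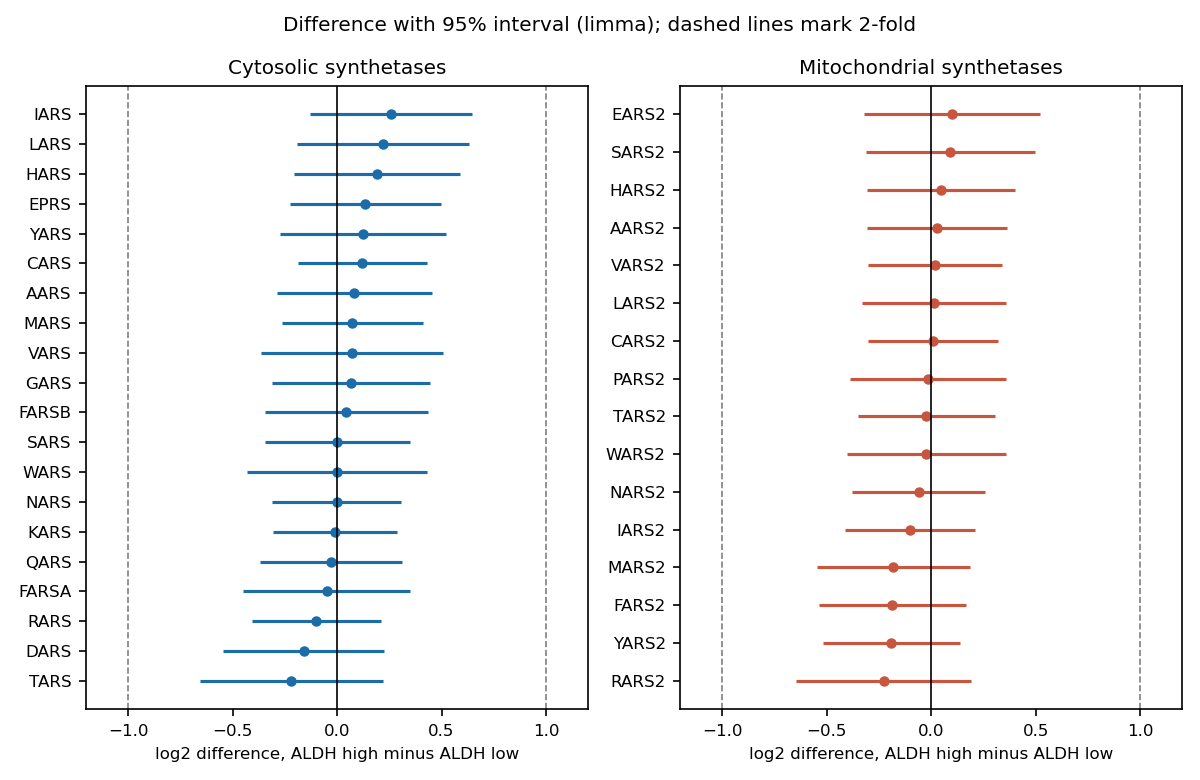
log2 difference (ALDH high minus ALDH low) of each synthetase with its 95% interval from limma on log2(normalized reads + 1), 3 samples per group, cytosolic genes on the left and mitochondrial genes on the right. Every interval crosses 0 and lies inside the dashed lines that mark a 2-fold change; the outermost bounds are −0.66 (TARS) and 0.65 (IARS).

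The cytosolic set had a median difference of 0.06 on the log2 scale, with 12 of 20 above 0 and 8 below, against a median of 0.02 over all genes, 52.3% of which lay above 0. Without ALDH low 1 the cytosolic median was −0.02, and without both samples numbered 2 it was 0.04. IARS, the isoleucyl enzyme of the complex (chr9:92210207-92293756, minus strand), had the largest positive difference, with 10428, 12762 and 10937 reads (normalized) in ALDH high 1, 2 and 3, against 8919, 11625 and 8188 in ALDH low 1, 2 and 3. ALDH low 1 and 3 were below all ALDH high libraries and ALDH low 2 was not. Its log2 difference was 0.26 (95% interval −0.13 to 0.65), with means of 11376 ± 1227 normalized reads (SD, n = 3) in ALDH high and 9577 ± 1811 (SD, n = 3) in ALDH low. LARS, the leucyl enzyme, which has been reported to sense leucine for mTORC1 signalling (chr5:146113038-146182660, minus strand), had 6302, 5398 and 6249 reads (normalized) in ALDH high 1, 2 and 3, against 4703, 6714 and 4254 in ALDH low 1, 2 and 3. ALDH low 2 was its highest library and ALDH low 3 its lowest. Its means were 5983 ± 507 normalized reads (SD, n = 3) in ALDH high and 5224 ± 1310.1 (SD, n = 3) in ALDH low, and the log2 difference was 0.22 (95% interval −0.19 to 0.63).

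TARS, the threonyl enzyme (chr5:33440696-33469539, plus strand), had the largest negative difference of the cytosolic set. It had 5124, 7469 and 4853 reads (normalized) in ALDH high 1, 2 and 3, against 7474, 5535 and 7071 in ALDH low 1, 2 and 3. ALDH high 1, ALDH high 3 and ALDH low 2, which resembled each other, were low and the other 3 libraries high, against the labels. Those other 3 were less alike over the synthetases. Their root mean square gap on the log2 scale was 0.33 between ALDH low 1 and ALDH low 3, and 0.31 between ALDH high 2 and ALDH low 1. Between ALDH high 2 and ALDH low 3 the gap was 0.24, against 0.08 to 0.12 among ALDH high 1, ALDH high 3 and ALDH low 2. The means of TARS were 5815 ± 1438 normalized reads (SD, n = 3) in ALDH high and 6693 ± 1023 (SD, n = 3) in ALDH low, and its log2 difference was −0.22 (95% interval −0.66 to 0.22). WARS, the tryptophanyl enzyme, which interferon induces, had 3851, 5939 and 3876 normalized reads in ALDH high, against 4332, 3979.7 and 5145 in ALDH low, with the highest value in ALDH high 2 and the lowest in ALDH high 1. DARS, the aspartyl enzyme of the complex, was set apart by ALDH low 1, with 2229, 2472 and 2095 normalized reads in ALDH high, against 3218, 2249 and 2223 in ALDH low and a log2 difference of −0.16 (−0.55 to 0.23), and 7.60% of its exon bases are shared with an antisense gene.

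VARS, the valyl enzyme (chr6:31777518-31795953, minus strand), varied most of all members over the libraries, by 1.68-fold between its highest and lowest. It had 10218, 11578 and 10089.8 reads (normalized) in ALDH high 1, 2 and 3, against 7632, 10493 and 12831 in ALDH low 1, 2 and 3. Both extremes were ALDH low libraries, and the log2 difference was 0.07 (95% interval −0.36 to 0.51). HARS, the histidyl enzyme (chr5:140673904-140691862, minus strand), was second among the cytosolic genes with a 1.60-fold range, below the 1.67-fold of EARS2 and 1.62-fold of RARS2 in the mitochondrial set. HARS had 3779, 3068 and 4051 reads (normalized) in ALDH high 1, 2 and 3, against 2534, 3611 and 3436 in ALDH low 1, 2 and 3. ALDH low 1 was its lowest library, and ALDH high 2 lay below ALDH low 2 and 3. Its means were 3633 ± 507 normalized reads (SD, n = 3) in ALDH high and 3194 ± 578 (SD, n = 3) in ALDH low, and the log2 difference was 0.19 (95% interval −0.20 to 0.59). KARS, the lysyl enzyme that serves both compartments (chr16:75627474-75648643, minus strand), varied least of the 36, by 1.08-fold, at 5268 ± 219 normalized reads (SD, n = 3) in ALDH high and 5298 ± 134 (SD, n = 3) in ALDH low. Its 6 values, 5396, 5015 and 5393 normalized reads in ALDH high, against 5285, 5439 and 5172 in ALDH low, overlapped fully, with a log2 difference of −0.01 (−0.30 to 0.29). All 36 members varied by less than 2-fold over the 6 libraries. The median log2 range was 0.54 for cytosolic and 0.36 for mitochondrial members, against 0.61 for genes with a mean of at least 100 and 0.73 for all genes.

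The 8 enzymes of the multisynthetase complex had a median difference of 0.03, 4 of them lying above 0 and 4 below, while for the 12 cytosolic genes outside it the median was 0.06, from 8 above 0 and 4 below. Without both samples numbered 2 these medians were 0.08 and 0.04. EPRS, a single polypeptide that charges both glutamate and proline (chr1:219968601-220046658, minus strand), had 9283, 11126 and 8818 reads (normalized) in ALDH high 1, 2 and 3, against 8007, 10123 and 8462 in ALDH low 1, 2 and 3. ALDH high 2 was highest and ALDH low 1 lowest. The log2 difference was 0.14 (95% interval −0.22 to 0.50). MARS, the methionyl enzyme, was at 12391 ± 264 normalized reads (SD, n = 3) in ALDH high and 11823 ± 1351 (SD, n = 3) in ALDH low, and 12.4% of its exon bases overlap genes on the other strand, among them DDIT3. QARS, the glutaminyl enzyme, was at 5852 ± 90.6 normalized reads (SD, n = 3) in ALDH high and 6020.2 ± 934 (SD, n = 3) in ALDH low. RARS, the arginyl enzyme, was at 2790.2 ± 163 normalized reads (SD, n = 3) in ALDH high and 2992 ± 236 (SD, n = 3) in ALDH low, and of the 8 it had the second most negative difference, −0.10, after DARS. The log2 differences of MARS and QARS were 0.07 and −0.03.

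Outside the complex, GARS, the glycyl enzyme that serves both compartments (chr7:30594681-30634033, plus strand), had 8045, 9406 and 8161 reads (normalized) in ALDH high 1, 2 and 3, against 6600.5, 8659 and 9385 in ALDH low 1, 2 and 3. ALDH low 1 was its lowest library, and ALDH high 2 and ALDH low 3 were almost level at the top. Its log2 difference was 0.07 (95% interval −0.31 to 0.45). FARSA and FARSB form the cytosolic phenylalanyl enzyme as a tetramer of both subunits. FARSB (chr2:222570536-222656337, minus strand), with 2128, 2320.1 and 2299 normalized reads in ALDH high, against 1681, 2474 and 2490.4 in ALDH low, was lowest in ALDH low 1, as FARSA was, and their log2 differences were 0.04 (−0.35 to 0.43) for FARSB and −0.05 (−0.45 to 0.35) for FARSA. NARS, the asparaginyl enzyme, was at 8428 ± 497 normalized reads (SD, n = 3) in ALDH high and 8431 ± 298 (SD, n = 3) in ALDH low, YARS, the tyrosyl enzyme, at 8099 ± 407 normalized reads (SD, n = 3) in ALDH high and 7544 ± 1587 (SD, n = 3) in ALDH low, and CARS at 3935 ± 145 normalized reads (SD, n = 3) in ALDH high and 3626 ± 337 (SD, n = 3) in ALDH low. Their log2 differences were −0.0015, 0.12 and 0.12, and those of AARS, SARS and WARS 0.08, 0.00068 and −0.00017.

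The mitochondrial set had a median difference of −0.02, with 7 of 16 above 0 and 9 below. RARS2, the arginyl enzyme (chr6:87514378-87590003, minus strand), had the largest absolute difference, with 494, 442 and 538 reads (normalized) in ALDH high 1, 2 and 3, against 718, 523 and 503 in ALDH low 1, 2 and 3. ALDH low 1 stood above the other 5 libraries, which overlapped. Its means were 492 ± 48.0 normalized reads (SD, n = 3) in ALDH high and 582 ± 119 (SD, n = 3) in ALDH low, and its log2 difference was −0.23 (95% interval −0.65 to 0.19). YARS2, whose values are given above, had a log2 difference of −0.19 (95% interval −0.52 to 0.14) from means of 1274 ± 81.9 normalized reads (SD, n = 3) in ALDH high and 1457 ± 153 (SD, n = 3) in ALDH low. FARS2, the single-chain phenylalanyl enzyme (chr6:5261044-5829192, plus strand), had 539, 512 and 502 reads (normalized) in ALDH high 1, 2 and 3, against 616, 530.0 and 626 in ALDH low 1, 2 and 3. ALDH high 1 lay between ALDH low 2 and the other ALDH low libraries. Its log2 difference was −0.19 (95% interval −0.54 to 0.17).

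MARS2, the methionyl enzyme, and IARS2 had log2 differences of −0.18 and −0.10, and those of NARS2, WARS2, TARS2, PARS2, CARS2, LARS2, VARS2 and AARS2 lay between −0.06 and 0.03. HARS2, the histidyl enzyme (chr5:140691426-140699318, plus strand), had 1690.4, 1359 and 1788 normalized reads in ALDH high, against 1384, 1622 and 1654 in ALDH low and a log2 difference of 0.05 (−0.31 to 0.40). SARS2 was at 0.09. EARS2 had the largest positive difference of the set, 0.10 (95% interval −0.32 to 0.52). Its values were 1701, 1682 and 1750.0 normalized reads in ALDH high, against 1721, 1988 and 1191 in ALDH low. ALDH low 3 was far below its other libraries and ALDH low 2 above them.

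Cytosolic and mitochondrial enzymes for the same amino acid were set side by side in 17 pairs as a ratio of RPKM within each library. The cytosolic partner was the higher in all 6 libraries in 15 pairs. The ratio was largest for FARSA over FARS2, with a mean of 33.4, followed by SARS over SARS2 at 24.1 and AARS over AARS2 at 22.2. The place of SARS over SARS2 is uncertain, since 46.2% of the SARS2 exon bases also belong to another gene on the same strand. The ratio was smallest for IARS over IARS2, with 1.06, 1.16 and 1.15 in ALDH high 1, 2 and 3, against 0.819, 1.14 and 0.715 in ALDH low 1, 2 and 3. By exon length IARS and IARS2 thus lay near parity, with ALDH low 1 and 3 below 1. Exon length was 7401 bases in IARS and 4165 in IARS2, against 4656 and 3560 bases in their longest coding transcripts. The level of a ratio, and with it the count of 15 pairs, depends on the length used. The change of a ratio between libraries does not. IARS over IARS2 also had the largest log2 difference of a ratio between the groups, 0.36, and its groups overlapped. LARS over LARS2 was 2.25, 1.45 and 2.15 in ALDH high, against 1.44, 2.16 and 1.46 in ALDH low, so that ALDH low 2 went with ALDH high 1 and 3 and ALDH high 2 with ALDH low 1 and 3. TARS over TARS2 showed the opposite order, at 1.58, 2.55 and 1.54 in ALDH high, against 2.71, 1.73 and 1.99 in ALDH low, with the same libraries on each side.

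HARS and HARS2 lie head to head on chromosome 5, and their RefSeq starts are separated by 84 bases, shown on the plus strand because both genes start from this one interval.
HARS to HARS2, chr5:140691371-140691454, plus strand: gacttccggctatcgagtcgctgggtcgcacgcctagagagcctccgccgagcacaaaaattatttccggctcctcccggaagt
HARS runs from its left end on the minus strand and HARS2 from its right end on the plus strand, and the element described above was found in neither promoter. HARS over HARS2 was 1.06, 1.07 and 1.08 in ALDH high 1, 2 and 3, against 0.871, 1.06 and 0.988 in ALDH low 1, 2 and 3. It was the single pair of 17 whose groups did not overlap, by the narrow gap between ALDH high 1 at 1.063 and ALDH low 2 at 1.059. For single genes, 3.67% of all in the table were higher in ALDH high with no overlap. The share for ratios of other genes was not computed, and HARS over HARS2 was not tested. The exons of each gene overlap the other's on the opposite strand, by 8.38% of HARS (with WDR55) and 11.7% of HARS2, and the sources used here do not say whether the libraries kept strand, so reads from the shared part cannot be told apart.

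Most cytosolic synthetases were low in ALDH low 1. The median deviation of the 20 genes from their own means was −0.02, 0.07 and −0.03 in ALDH high 1, 2 and 3, against −0.21, 0.06 and 0.06 in ALDH low 1, 2 and 3 on the log2 scale. ALDH low 1 was the lowest library in 12 of the 20 genes (60.0%), against 5 of the 16 mitochondrial genes and 23.4% of genes with a mean of at least 100. In ALDH low 1, DARS, TARS and KARS were the 3 cytosolic genes above their own mean, against 9, 13 and 9 of 20 in ALDH high 1, 2 and 3, and 14 and 13 of 20 in ALDH low 2 and 3. The mitochondrial medians were −0.07, 0.0034 and 0.01 in ALDH high, against −0.0021, 0.01 and 0.09 in ALDH low. The largest shortfalls in ALDH low 1 were those of VARS, YARS, HARS, FARSB and GARS.

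**Figure D3:**
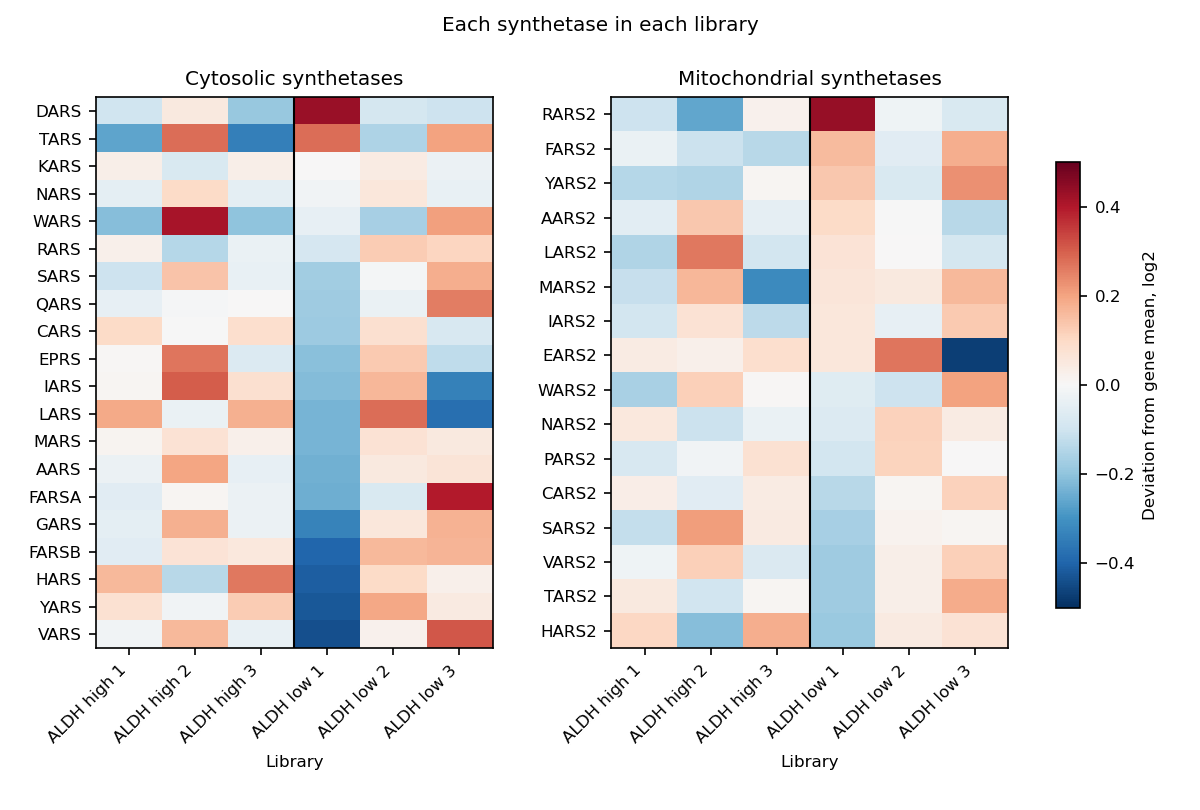
Deviation of each synthetase from its own mean over the 6 libraries (log2, colour), with ALDH high libraries left and ALDH low libraries right of the black line and genes ordered by their value in ALDH low 1. The ALDH low 1 column is blue in most cytosolic rows, with a median of −0.21 there and of −0.0021 in the mitochondrial rows, while DARS, TARS and RARS2 are red.

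GC content of the transcripts moved with the values in ALDH low 1. Across genes, the deviation in ALDH low 1 correlated with GC content at r = −0.44 over the 20 cytosolic members, −0.44 over the 16 mitochondrial ones and −0.45 over 11490 genes with a mean of at least 100, values that share 1 library and are given as a description. VARS, with 62.6% GC, was low in ALDH low 1, and DARS and RARS2, with 41.2% and 41.9%, were high. FARSB and HARS were low there at 41.6% and 46.8% GC. In ALDH low 3 the correlation ran the other way, at r = 0.60 over the cytosolic, −0.09 over the mitochondrial members and 0.37 over the 11490 genes, and VARS and FARSA (60.3% GC) had their highest values there. Transcript length went with the deviation in ALDH high 2, at r = 0.54 over the 36 members and 0.53 over the 11490 genes. In ALDH low 3 it went the other way, at r = −0.40 over the members and −0.59 over the 11490 genes, and in ALDH low 2 the values were 0.34 and 0.20. With a trend on length and GC removed from each library, a choice made after seeing the data, the cytosolic median in ALDH low 1 was −0.13. The part of GC content and length in the differences between the groups was not tested further.

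**Figure D4:**
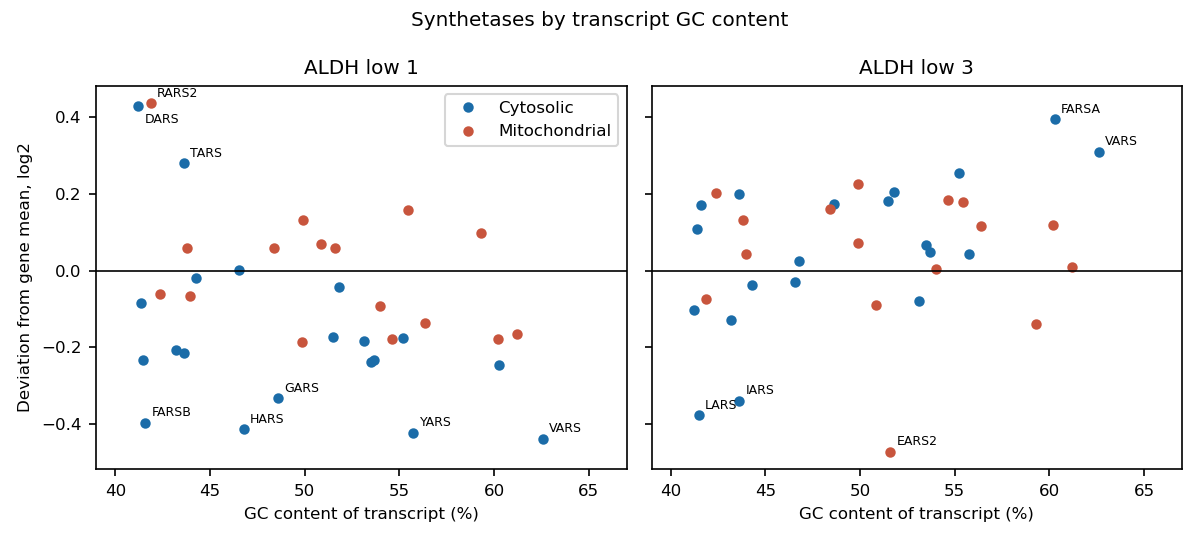
Deviation of each synthetase from its own mean (log2) against the GC content of its transcript in percent, for ALDH low 1 on the left and ALDH low 3 on the right, cytosolic genes in blue and mitochondrial genes in red. In ALDH low 1 the points lie lower at higher GC (r = −0.32 over the 36 genes) from DARS and RARS2 to VARS, and in ALDH low 3 they lie higher (r = 0.31).

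The 7 cytosolic genes with the ATF4 element in their promoter had a median difference of 0.07, with 5 above 0 and 2 below. The 9 cytosolic genes with a promoter and no element had a median of −0.00017, with 4 above and 5 below. Over the libraries the medians of the genes with the element were −0.03, 0.18 and −0.03 in ALDH high 1, 2 and 3, against −0.22, 0.06 and 0.05 in ALDH low 1, 2 and 3. Those of the genes without it were −0.04, 0.01 and −0.03 in ALDH high, against −0.18, 0.04 and 0.17 in ALDH low. Both sets were lowest in ALDH low 1, and the genes with the element were highest in ALDH high 2.

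ATF4 itself had 25174, 25506 and 25090.1 reads (normalized) in ALDH high 1, 2 and 3, against 33281, 25638 and 35519.6 in ALDH low 1, 2 and 3. The ALDH high values were close together and below all ALDH low values, with ALDH low 2 just above ALDH high 2. Its log2 difference was −0.30 (95% interval −0.70 to 0.10) and did not pass the threshold. Of 36 genes of the ATF4 amino acid response other than synthetases, 35 were in the table. None was called in either direction by limma, 9 lay above 0 and 26 below, and the median was −0.08. Without both samples numbered 2 it was −0.21, with 11 of 35 at an unadjusted p under 0.05, where 15.3% of all genes were, and 0 called. The groups did not overlap in 3 of the 35, ATF4, MTHFD2 (an enzyme of mitochondrial folate metabolism) and PYCR1 (an enzyme of proline synthesis), all lower in ALDH high, where 2.76% of genes with a mean of at least 100 were higher and 3.51% lower in ALDH high with no overlap.

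Of this list JDP2, a repressor of the AP-1 family, and DDIT3, the stress factor CHOP, varied most. JDP2 had 1013, 1773 and 961 reads (normalized) in ALDH high 1, 2 and 3, against 1912, 909.8 and 2214 in ALDH low 1, 2 and 3, and DDIT3 had 1076, 1260.0 and 1212 normalized reads in ALDH high, against 1649, 878 and 1892 in ALDH low. In JDP2 ALDH high 1 and 3 and ALDH low 2 were the low libraries, and in DDIT3 ALDH low 2 was the lowest. ASNS, asparagine synthetase and a standard target of ATF4, was at 10861 ± 160.3 normalized reads (SD, n = 3) in ALDH high and 11149 ± 1434 (SD, n = 3) in ALDH low, and its log2 difference was −0.03 (−0.37 to 0.31). The element was found in 9 of the 28 genes of the list with a promoter (32.1%). The list's median deviations were −0.13, 0.10 and −0.09 in ALDH high 1, 2 and 3, against 0.05, −0.10 and 0.21 in ALDH low 1, 2 and 3. By its median, ALDH low 1, the lowest library of the cytosolic synthetases, was thus not low for this list. By single genes it was the lowest library in 10 of the 35 (28.6%), ASNS among them, against 23.4% of genes with a mean of at least 100.

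None of the other genes of tRNA charging and delivery passed the threshold. Limma called 0 of 19 in either direction, 4 lay above 0 and 15 below, and the median was −0.10. Without both samples numbered 2 it was −0.12, with 4 of 19 at an unadjusted p under 0.05, where 15.3% of all genes were, and 0 called. Their median deviations were −0.08, −0.02 and −0.10 in ALDH high 1, 2 and 3, against 0.21, −0.03 and 0.10 in ALDH low 1, 2 and 3. ALDH low 1, where the cytosolic synthetases were lowest, was thus the highest library for these genes, and with the trend on length and GC removed its value was 0.03. EEF1E1, a scaffold of the multisynthetase complex, varied most, with 367, 291 and 353 reads (normalized) in ALDH high 1, 2 and 3, against 752, 410.0 and 344 in ALDH low 1, 2 and 3. ALDH low 1 was far above the other 5 libraries, and the log2 difference was −0.50 (95% interval −1.10 to 0.11). AIMP1, another scaffold, had 1312, 1171 and 1285 normalized reads in ALDH high, against 1746, 1239.7 and 1424 in ALDH low, and AIMP2, the third, 1719.7, 1880.4 and 1699.7 normalized reads in ALDH high, against 1493, 1817 and 2495 in ALDH low. AIMP1 was highest in ALDH low 1 and AIMP2 was lowest there.

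TRNT1, which adds the CCA end that synthetases charge, had 1066, 1451 and 1124 reads (normalized) in ALDH high 1, 2 and 3, against 2055, 1124 and 1405 in ALDH low 1, 2 and 3. Its ALDH low 1 value was the highest, and the groups overlapped, with a log2 difference of −0.30 (−0.79 to 0.19). DTD2, a deacylase that removes wrongly joined amino acids, was the single gene of the 19 whose groups did not overlap, where 3.51% of genes with a mean of at least 100 were lower in ALDH high with no overlap. It had 679, 682 and 641 normalized reads in ALDH high, against 1004, 693 and 892 in ALDH low, and its log2 difference was −0.35 (−0.74 to 0.03). GATC, GATB and QRSL1, the subunits of the mitochondrial amidotransferase, had log2 differences of −0.36, −0.19 and −0.03. XPOT, which exports tRNA from the nucleus, was at 0.01, and EEF1A1 and TUFM, the elongation factors that carry charged tRNA to the ribosome in the cytosol and in mitochondria, were at −0.28 and −0.10.

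**Figure D5:**
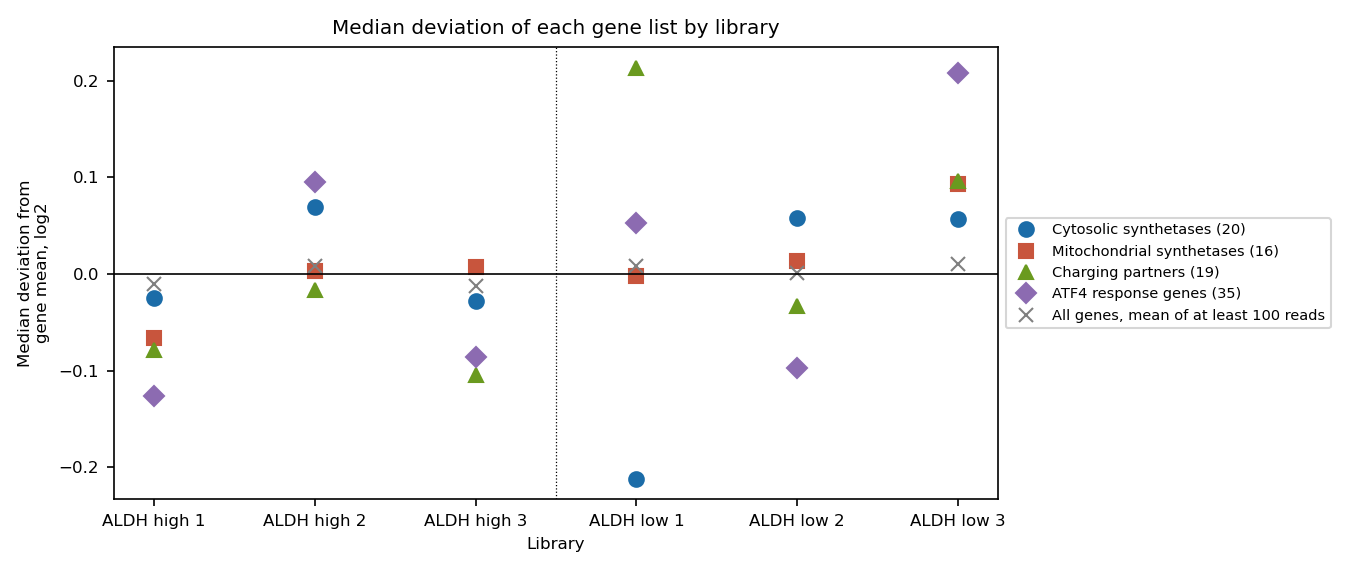
Median deviation from the gene mean (log2) of each gene list in each library, ALDH high 1 to 3 on the left and ALDH low 1 to 3 on the right of the dotted line, for 20 cytosolic and 16 mitochondrial synthetases, 19 charging partners, 35 ATF4 response genes and all genes with a mean of at least 100. In ALDH low 1 the cytosolic synthetases stand at −0.21 and the charging partners at 0.21, and the mitochondrial synthetases stay between −0.07 and 0.09 in all 6 libraries.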

How the data were processed

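Poly(A) RNA of 6 samples was sequenced. Trimmomatic 0.36, STAR 2.5.2b, Subread 1.5.2 (featureCounts), DESeq2 and GRCh38 are named, per the submitters' processing notes. Uniquely placed reads in exons were counted, per the labels' protocols. The annotation, not given in the sources used here, may differ from the one used below for lengths. The deposited table gives for each gene a normalized signal in every sample, made by the authors from read counts by size factors, and the authors' log2 fold changes (ALDH low over ALDH high) and p-values. In the authors' deposited table the 36 synthetases had fold changes of −0.25 to 0.24 on the log2 scale and a smallest adjusted p of 0.998. At least 99.99% of the values were whole multiples of 1 read within 0.02 of a read, so whole reads were recovered.

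The 46 spike-in rows were left out. All 16000 genes, whose lowest mean was 9.65 normalized reads, were tested with limma 3.58.1 (trend = TRUE, R 4.3.3) on log2(normalized reads + 1), Benjamini-Hochberg adjustment and a threshold of 0.05; on this scale the change of low genes is understated. This is the test that was set for normalized values. Alternatives were edgeR 4.0.16, DESeq2 1.42.0 and limma-voom on recovered reads, other scalings, pseudocounts of 0.5 and 5, a minimum mean of 100, a replicate block, leaving out samples, and removing a trend on length and GC. The scripts were tested on simulated data. GENCODE 29, which matched 15939 identifiers, gave coordinates (GRCh38, counted from 1), exon lengths, GC content and overlaps.

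All 36 synthetases are named. Given in full are the 3 most abundant of each compartment, the 3 with the largest absolute difference of each, the 3 cytosolic ones with the largest range, those of the other lists that varied most, and FARSA, FARSB, HARS, HARS2, GARS, KARS and EPRS for what they encode. DARS, WARS, EARS2, ASNS, AIMP1, AIMP2, DTD2, ATF4 and other genes outside this rule were picked with their values known. The members and lists were chosen with earlier results of these data known. A further gene of the charging list is counted in its totals and not reported here.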

Additional observations from a re-analysis of the deposited data

Results flagged for a closer look

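ERCC spike-ins, synthetic control RNAs that enter no comparison here, made up 0.487% of all reads, which exceeds what a count of 0 would allow. With 3 samples in a group, no search for single outlying values was made.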

How the results depend on the processing

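All 36 synthetases stayed short of the threshold in every one of the 17 alternatives, with a smallest adjusted p of 0.184 (limma, without both samples numbered 2). The sign of the log2 difference held in all of them for 12 members and turned in some for 24, of which the largest main difference was 0.16 in size (DARS). The count of genes past the threshold over the whole table was 0 throughout, except for 107 without both samples numbered 2; the cause was not tested. Signs turned with edgeR (SARS −0.0045, WARS 0.021), DESeq2 (SARS −0.0034, WARS 0.022), limma-voom (SARS −0.0038), TMM scaling (SARS −0.0013), total-count scaling (KARS 0.036, NARS 0.043, QARS 0.015, WARS 0.044, PARS2 0.029, TARS2 0.021, WARS2 0.020), without both samples numbered 2 (KARS 0.045, SARS −0.076, AARS2 −0.027, LARS2 −0.11, NARS2 0.022, PARS2 0.043, TARS2 0.027, VARS2 −0.017), and with the trend on length and GC removed, which was added after seeing the data (KARS 0.037, NARS 0.024, RARS 0.046, VARS −0.045, AARS2 −0.066, LARS2 −0.11, NARS2 0.012, VARS2 −0.086, WARS2 0.051). Leaving out 1 library at a time turned 22 signs, with these ranges: AARS −0.015 to 0.14, AARS2 −0.035 to 0.084, CARS2 −0.057 to 0.069, DARS −0.25 to 0.015, EARS2 −0.11 to 0.26, FARSA −0.19 to 0.14, FARSB −0.14 to 0.14, GARS −0.082 to 0.17, HARS2 −0.033 to 0.17, KARS −0.026 to 0.026, LARS2 −0.12 to 0.093, MARS −0.024 to 0.13, NARS −0.050 to 0.027, PARS2 −0.066 to 0.037, QARS −0.13 to 0.090, SARS −0.085 to 0.092, TARS2 −0.12 to 0.063, VARS −0.13 to 0.25, VARS2 −0.066 to 0.083, WARS −0.21 to 0.11, WARS2 −0.091 to 0.070, YARS −0.056 to 0.25. Without ALDH low 1, where most cytosolic members were lowest, 11 signs turned and the cytosolic median was −0.02. The deviations of same-numbered samples correlated at r = −0.46, −0.43 and 0.14 for numbers 1, 2 and 3. Whether same-numbered samples share a sort or culture was not tested. With a replicate block limma called 0 genes and 226 had an unadjusted p under 0.05, and no sign of a member turned. With 3 samples per group and a median interval half-width of 0.36 on the log2 scale, before any adjustment, smaller differences were not detectable. Larger ones could also fall short of the adjusted threshold, as −0.50 for EEF1E1 did. Length and GC content moved with the libraries, and their part in the results was not tested beyond the removal of the trend.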
